A study of Mus musculus with 24 samples.

Results

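The genes described here are 10 heat shock protein genes and their co-chaperones in mouse liver: Hspa1a, Hspa1b, Hspa8, Hsph1, Bag3, Dnajb1, Hsp90aa1, Hspb1, Hspd1 and Hspe1. They were chosen by symbol, and each symbol matched 1 of the 23746 loci in every file, so all 10 members were measured in all 24 libraries. The choice was made with earlier results of these data known. Shares of members called are therefore set beside those of all loci as a description and not as a test. The set is named for the cytosol, but Hspd1 and Hspe1 encode the mitochondrial chaperonin Hsp60 and its lid Hsp10. They were kept, and they are described separately.

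Liver RNA came from C57BL/6 mice carrying floxed alleles of Foxo1, the gene for an insulin-restrained transcription factor. In the acute model, FoxO1lox/lox mice received AAV8.TBG.eGFP (the GFP groups, controls) or AAV8.TBG.Cre (the Cre groups, deleted) by tail vein, and livers were collected on day 21. The TBG promoter is active in hepatocytes, so other liver cells were not the target of the virus. In the constitutive model, FoxO1lox/lox mice (WT) were compared with offspring of a cross to Albumin-cre mice, labelled FoxO1-/- in liver (KO). The albumin promoter likewise drives Cre in cells of the hepatocyte lineage. Every mouse was fasted for 4 h, and the refed groups were then fed for 1 h. This gives 8 groups of 3 libraries: GFP fasted, Cre fasted, GFP refed, Cre refed, WT fasted, KO fasted, WT refed and KO refed. Age and sex are not given in the sources used here. Whether the 3 libraries of a group come from 3 animals is not stated. The p-values therefore describe the spread among these libraries, part or all of which may be technical.

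Heat shock proteins bind unfolded stretches of other proteins and help them fold, refold or reach the proteasome. Hsp70 proteins hold their clients in a cycle of ATP hydrolysis that J-domain proteins start and nucleotide exchange factors end, and clients then pass to Hsp90 or to the chaperonins. The transcription factor HSF1 raises several of these genes together after heat or other loads of unfolded protein, by binding arrays of nGAAn units in their promoters. The liver makes large amounts of secreted protein, and feeding raises its protein synthesis.

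Values are FPKM, fragment numbers normalised for transcript length and library size, so levels can be compared between genes. Differences are log2 changes of FPKM + 1 with their standard error (SE), tested with limma over all loci that reached an FPKM of 1 in at least 3 of the fitted libraries. A gene is called when its Benjamini-Hochberg adjusted p is below 0.05. Counts at an unadjusted p below 0.05 are also given, without the share of all loci at that level. They cannot be set against the shares of loci called. Adding 1 understates the change of low genes, so ratios of mean FPKM are given as folds beside it. Total depth is unknown. The deposited bounds on each value gave relative depths of 1.10 to 1.27 times the mean in the 12 constitutive libraries, 1.16 to 1.37 in 4 acute libraries, which are 1 of each acute group, and 0.551 to 0.670 in the other 8 acute libraries. Foxo1 lay between 0.212 and 0.571 FPKM in the 12 deleted libraries and between 4.21 and 6.81 FPKM in the 12 controls. The hepatocyte markers Alb, Apoa1, Ttr, Cps1 and Hnf4a summed to between 42160 and 64780 FPKM in every library. RNA came from whole liver, so fewer cells of a type and less RNA per cell cannot be told apart.

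The 10 members spanned a wide range of levels. Hspa8, the constitutive Hsc70, was the most abundant at a mean of 438 FPKM over the 24 libraries. Hspd1 (198 FPKM) and Hspe1 (183 FPKM) followed. Hsp90aa1, the inducible cytosolic Hsp90, averaged 35.8 FPKM. Hsph1, an Hsp110 that exchanges nucleotide on Hsp70, averaged 11.4 FPKM, and Bag3, the co-chaperone that links Hsp70 to small heat shock proteins and autophagy, 9.50 FPKM. Hspb1, the small heat shock protein Hsp25, and Dnajb1, the J-domain protein Hsp40, averaged 9.06 and 8.65 FPKM. The inducible Hsp70 genes were the lowest, Hspa1b at 3.34 and Hspa1a at 1.63 FPKM. Hspa1a reached an FPKM of 1 in 16 of the 24 libraries and so passed the filter with the help of refed groups, while the other 9 members exceeded it in all 24. No member was listed at 0 in any library. The highest library exceeded the lowest by 13.7-fold for Hspa1a and 11.4-fold for Hspa1b, but by 1.45-fold for Hspd1 and 1.42-fold for Hspe1.

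**Figure D1:**
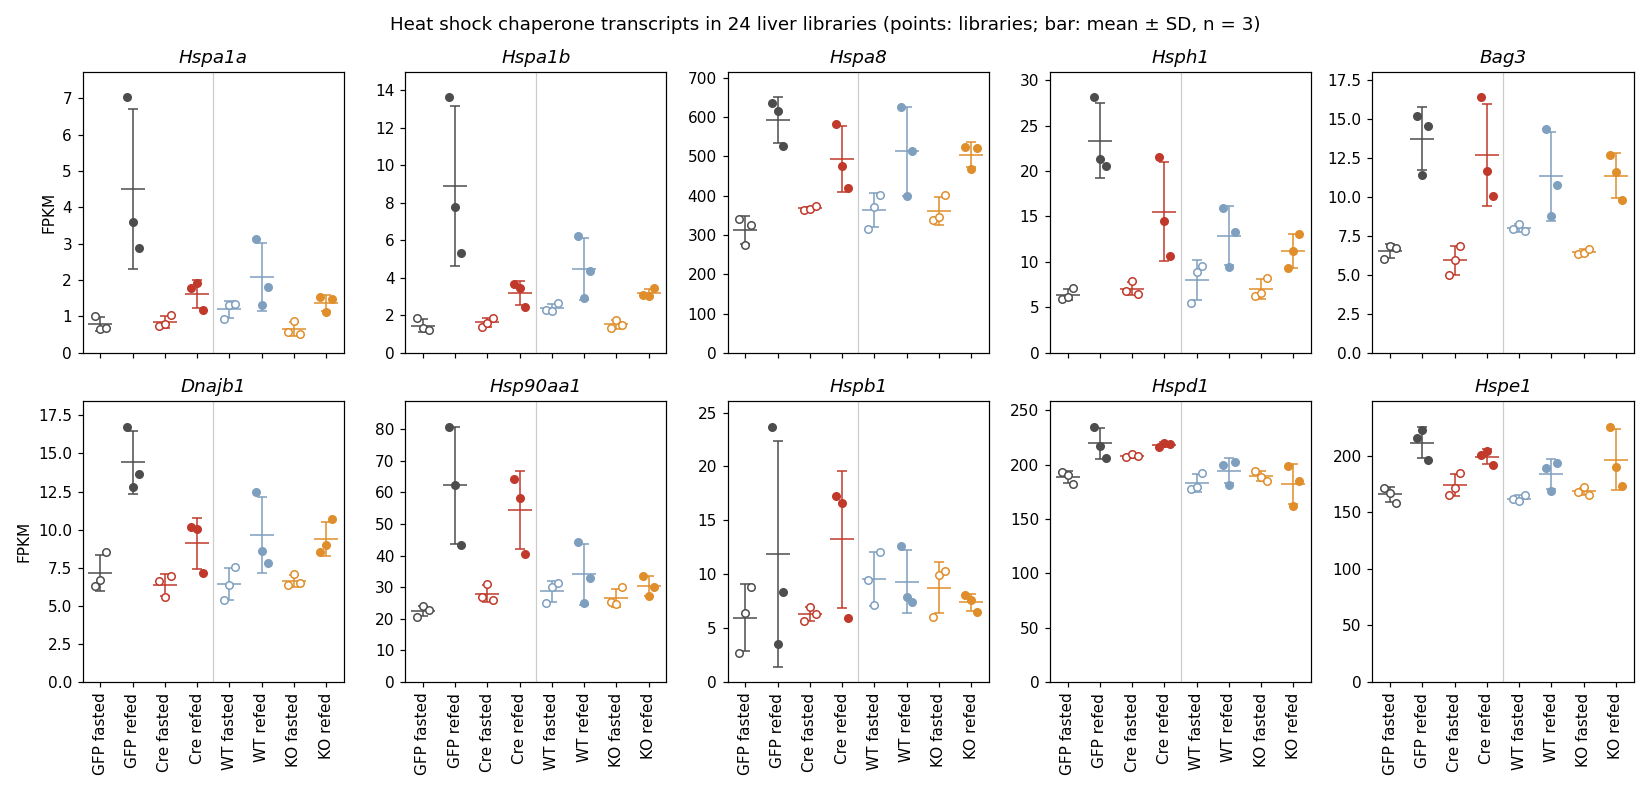
FPKM (y axis, from 0) of the 10 members in each of the 24 libraries, by group (x axis). Points are libraries, horizontal bars are means and whiskers are SD (n = 3), and a grey line separates the acute from the constitutive model. For 9 members, all but Hspb1, the mean of GFP refed is the highest of the 8 groups, while Hspd1 and Hspe1 stay between 159 and 235 FPKM.

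Promoter windows of members are shown because several of these genes moved together on refeeding and HSF1 binds repeated units near their starts. RefSeq (GRCm38.p6, the build mm10) had 11 promoter entries for 8 members, none of them for Hspa8 or Hsp90aa1. In the 250 bases before each start, both strands were searched for a pair of facing heat shock units (GAANNTTC or TTCNNGAA) and for 3 alternating units (the pair GAANNTTC continued by NNGAA, or the pair TTCNNGAA continued by NNTTC), where N is any base and the arrangements may overlap. The pair was present in 6 of the 8 members, against 12.8% of all 32851 promoters. Members are counted by gene, if any entry matched, and all promoters by entry, so these shares are in unlike units. The near-copy windows of Hspa1a and Hspa1b, and the run shared by Hspd1 and Hspe1, count for both genes of each pair. The array of 3 units was present in Hspd1 and Hspe1 alone among the members, against 0.466% of all promoters. The core FoxO motif GTAAACA was found in 0 of the 8, against 3.17% of all promoters. A match is a description of letters and shows no binding. Only exact letters within 250 bases were searched, so a missing match does not show that a heat shock element is absent.

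Below are the 150 bases before the RefSeq start, 5′ to 3′ on the strand of the gene, with matched units in capitals. Hspa1a and Hspa1b are shown because the windows are near copies: 149 of 150 bases were identical, and both hold the pair with its first base 104 bases before the start. Hspa1a is on the minus strand at chr17:34972157-34972306, Hspa1b on the minus strand at chr17:34959239-34959388, Hsph1 (the start that matches the locus in the files) on the minus strand at chr5:149636316-149636465 and Hspb1 on the plus strand at chr5:135887769-135887918. Bag3 (plus strand, chr7:128523433-128523582) is shown as a member called higher on refeeding whose window holds no matched pair, as was also the case for Dnajb1.
Hspa1a: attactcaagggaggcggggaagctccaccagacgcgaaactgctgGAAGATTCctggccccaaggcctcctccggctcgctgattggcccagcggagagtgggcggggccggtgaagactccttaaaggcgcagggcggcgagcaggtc
Hspa1b: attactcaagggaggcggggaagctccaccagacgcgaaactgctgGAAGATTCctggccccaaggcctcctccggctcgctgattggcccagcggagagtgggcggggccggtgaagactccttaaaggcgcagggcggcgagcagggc
Hsph1: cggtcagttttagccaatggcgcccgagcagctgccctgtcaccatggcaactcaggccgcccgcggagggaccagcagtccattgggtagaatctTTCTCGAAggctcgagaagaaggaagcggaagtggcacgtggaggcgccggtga
Hspb1: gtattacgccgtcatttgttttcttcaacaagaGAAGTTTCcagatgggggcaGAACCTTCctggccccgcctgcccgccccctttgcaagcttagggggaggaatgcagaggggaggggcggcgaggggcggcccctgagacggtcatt
Bag3: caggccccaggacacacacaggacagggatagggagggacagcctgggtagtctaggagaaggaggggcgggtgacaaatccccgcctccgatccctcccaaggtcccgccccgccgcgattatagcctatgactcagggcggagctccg

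Hspd1 and Hspe1 lie head to head on chromosome 1, and 215 bases separate their loci (Hspd1 at 55077834 to 55087932, Hspe1 at 55088148 to 55091317, mm10). The whole gap, chr1:55087933-55088147, is shown on the plus strand, which is the strand of Hspe1. A single run of alternating units serves as the match for both genes, with its first base 89 bases before the start of Hspe1.
Hspe1: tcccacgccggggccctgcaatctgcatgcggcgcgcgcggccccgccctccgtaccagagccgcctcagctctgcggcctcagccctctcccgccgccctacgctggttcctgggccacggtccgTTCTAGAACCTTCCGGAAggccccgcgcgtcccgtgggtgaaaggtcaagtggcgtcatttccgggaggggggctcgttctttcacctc

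Of the 4 refeeding comparisons, that in GFP-treated control livers called the most members. Of the 10 members 8 rose and none fell, in a comparison in which 6.56% of 10452 loci were called in either direction and 4.81% were called higher. The median log2 change was 0.94 over the members and 0.08 over all loci. In 9 members the 3 refed libraries lay above the 3 fasted libraries, an arrangement that 19.9% of loci showed. Hspb1 was the exception, and Hspd1 did not pass the test.

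Hspa1b (chromosome 17, 34956429 to 34959238) encodes an Hsp70 that is nearly silent without stress. Its level was 1.84, 1.32 and 1.20 FPKM in the fasted GFP libraries and 13.6, 7.79 and 5.32 FPKM in the refed ones. All refed values were above all fasted values, with the first refed library the highest. The mean rose 6.12-fold, by 1.94 ± 0.25 on the log2 scale (SE; limma adjusted p = 0.00209). Its neighbour Hspa1a (34969359 to 34972156), at 1.01, 0.667 and 0.684 FPKM fasted and 7.02, 3.59 and 2.89 FPKM refed, rose 5.72-fold, by 1.56 ± 0.23 (adjusted p = 0.00418). The groups did not overlap in either gene.

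These genes cannot be fully separated by short reads. Their coding sequences were 99.43% identical in the GENCODE M21 transcripts, against 74.1% and 74.4% for Hspa1a and Hspa1b with Hspa8, and 62.3% of 50-base windows of the Hspa1b transcript occur in another gene's transcript. The ratio of Hspa1b to Hspa1a stayed between 1.70 and 2.90 over the 24 libraries, with a median of 2.02. Summed as 1 locus, they rose by 2.07 ± 0.26 (adjusted p = 0.00183). The share of windows found in other genes, mostly pseudogenes, was 74.8% for Hspa8, 58.5% for Hsp90aa1, 51.6% for Hspb1 and 44.8% for both Hspd1 and Hspe1. Reads from such windows cannot be placed by sequence alone, and the effect on the levels was not tested. The share was 0.441% for Dnajb1 and 0% for Hsph1 and Bag3.

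Hspa8 (chromosome 9, 40801273 to 40805199), which folds new proteins and uncoats clathrin in unstressed cells, measured 340.1, 273 and 326 FPKM in fasted GFP livers. After refeeding it measured 635, 614 and 525 FPKM. Every refed library exceeded every fasted library, and the mean rose 1.89-fold, by 0.92 ± 0.13 (adjusted p = 0.0033). In absolute level this was the largest shift among the 10 genes, from a mean of 313 to 591 FPKM.

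The partners that drive the Hsp70 cycle moved the same way. Hsph1 (chromosome 5, 149616845 to 149636315) was at 5.97, 6.19 and 7.09 FPKM fasted and at 28.1, 21.4 and 20.6 FPKM refed. It rose 3.64-fold, by 1.71 ± 0.20 (adjusted p = 0.00129), which was the lowest adjusted p of the 10. Its lowest refed library was well above its highest fasted one.

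Dnajb1 (chromosome 8, 83608175 to 83611903) delivers clients to Hsp70 and starts ATP hydrolysis. It was at 6.29, 6.71 and 8.50 FPKM fasted and at 16.8, 12.8 and 13.7 FPKM refed, a 2.01-fold rise of 0.92 ± 0.15 (adjusted p = 0.00775). Bag3 (chromosome 7, 128523583 to 128546979) was at 5.99, 6.88 and 6.73 FPKM fasted and at 15.2, 11.4 and 14.5 FPKM refed, a 2.10-fold rise of 0.96 ± 0.17 (adjusted p = 0.00911). In both genes the fasted and refed groups were separate.

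Hsp90aa1 (chromosome 12, 110691036 to 110696395) takes over clients such as kinases and steroid receptors from Hsp70. It was at 20.7, 23.9 and 22.9 FPKM in fasted GFP livers and at 80.7, 62.5 and 43.4 FPKM in refed ones. The rise was 2.76-fold, by 1.39 ± 0.21 (adjusted p = 0.00466). The refed libraries were spread widely but all lay above the fasted ones.

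Hspb1, a small heat shock protein that holds unfolded proteins without ATP, was the most variable member. Its fasted GFP values were 2.73, 6.37 and 8.84 FPKM and its refed values 23.7, 3.55 and 8.36 FPKM. The groups overlapped, the first refed library was far above the rest, and the log2 difference of 0.65 ± 0.56 did not pass the test (adjusted p = 0.517).

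The mitochondrial pair had the smallest log2 differences of the 10 in GFP livers. Hspe1 was at 172, 168 and 159 FPKM fasted and at 215, 223 and 197 FPKM refed. It rose 1.28-fold, by 0.35 ± 0.08 (adjusted p = 0.0235), but the call was lost under median-of-ratios scaling, in a fit of the compared groups alone, in the 8 shallower acute libraries, and without any of GFP fasted 1, 2 or 3 or GFP refed 1 or 2 (adjusted p up to 0.0955 over these). Hspd1 was at 193, 191 and 182 FPKM fasted and at 235, 218 and 206 FPKM refed. These groups did not overlap either, but Hspd1 was not called (adjusted p = 0.0801).

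The first refed GFP library had the highest value of 9 members within its group, and the second refed library that of Hspe1. Without that first library, Hspa1b rose by 1.61, Hspa1a by 1.25 and Hsp90aa1 by 1.18 on the log2 scale, and 7 members were called. Within the 8 shallower acute libraries 7 members were called, all but Hspb1, Hspd1 and Hspe1, with Hspa1b at 2.14 (adjusted p = 0.0151). The deeper acute libraries hold 1 library a group and allow no test; there Hspa1b was at 1.20 FPKM fasted and 5.32 FPKM refed in GFP livers.

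Refeeding in Cre-treated livers, which lacked FoxO1 in hepatocytes, gave 3 calls among the 10 members, all higher: Hsph1, Bag3 and Hsp90aa1. In that comparison 5.44% of loci were called, 4.3% higher. The median log2 change was 0.58 over the members and 0.08 over all loci, all 10 members were above 0, and in 9 the refed libraries lay above the fasted ones, as for 23% of loci. Bag3 was at 5.02, 5.92 and 6.88 FPKM fasted and at 16.4, 11.6 and 10.1 FPKM refed, and rose 2.14-fold, by 0.96 ± 0.17 (adjusted p = 0.0145). Hsph1 was at 6.83, 7.88 and 6.45 FPKM fasted and at 21.5, 14.5 and 10.7 FPKM refed, and rose 2.20-fold, by 0.99 ± 0.20 (adjusted p = 0.0226). Hsp90aa1, at 27.0, 30.9 and 25.96 FPKM fasted and 64.4, 58.2 and 40.6 FPKM refed, rose 1.95-fold, by 0.91 ± 0.21 (adjusted p = 0.0327). In each the lowest refed library was above the highest fasted one.

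The inducible Hsp70 genes stayed low in these livers. Hspa1b was at 1.40, 1.61 and 1.88 FPKM fasted and at 3.68, 3.45 and 2.46 FPKM refed, and Hspa1a was at 0.739, 0.783 and 1.04 FPKM fasted and at 1.78, 1.91 and 1.18 FPKM refed. The groups were separate in both, but neither passed the test, with log2 differences of 0.67 ± 0.25 (adjusted p = 0.131) and 0.49 ± 0.23 (adjusted p = 0.21). Hspa8 was at 364, 366 and 372 FPKM fasted and at 583, 474 and 420.0 FPKM refed, a difference of 0.41 ± 0.13 (adjusted p = 0.0837), and Dnajb1 differed by 0.44 ± 0.15 (adjusted p = 0.108). Hspb1 was at 5.64, 6.97 and 6.33 FPKM fasted and at 17.2, 16.6 and 5.95 FPKM refed, where its coefficient of variation, 47.8%, was the highest of the 10 members. The third refed Cre library had the lowest value of 9 members within its group, and the first, which is a deeper library, the highest of 7.

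The calls in Cre livers depended on which libraries were fitted. That of Bag3 held in 11 of 12 fits with 1 library left out and was lost without Cre fasted 2. Those of Hsph1 and Hsp90aa1 each held in 7 of the 12. The count fell from 3 to 1 without Cre fasted 1, Cre fasted 3, Cre refed 1 or Cre refed 2, to 0 without Cre fasted 2, and to 0 in the 8 shallower acute libraries, where Bag3 differed by 0.68 (adjusted p = 0.124) and Hsph1 by 0.72 (adjusted p = 0.131).

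**Figure D2:**
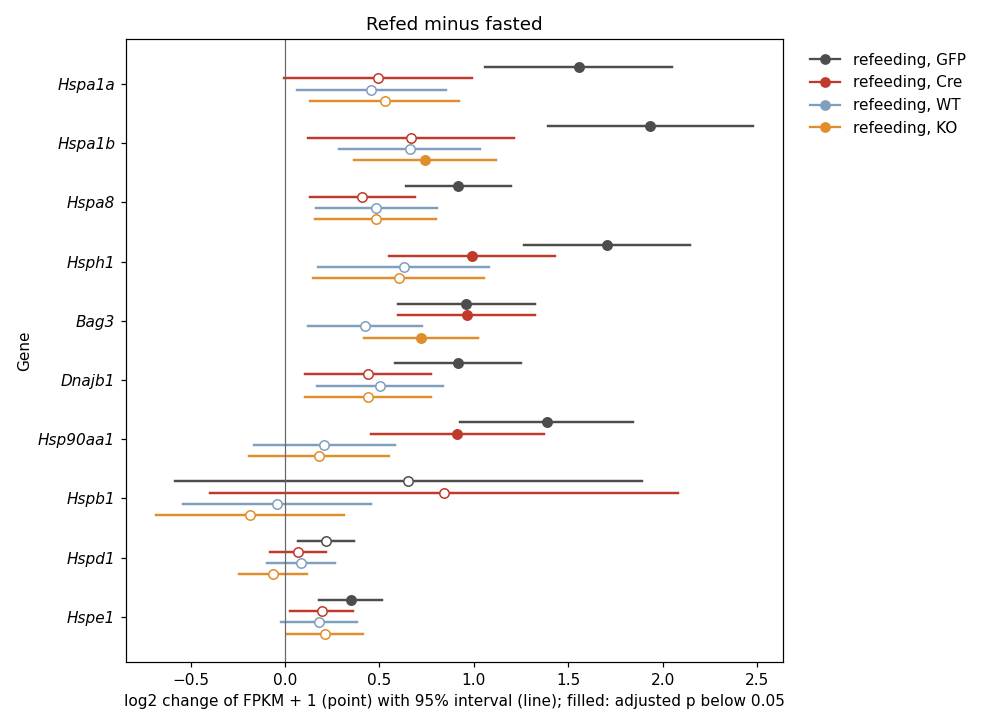
Refeeding effect on each member (y axis) in the GFP, Cre, WT and KO livers, as the log2 change of FPKM + 1, refed minus fasted (x axis), with 95% intervals from limma. The intervals are not adjusted for the number of loci. Filled points passed an adjusted p of 0.05: 8 members in GFP, 3 in Cre, 0 in WT and 2 in KO.

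In the constitutive model fewer members were called. Refeeding in WT livers called 0 of the 10 members with limma, and 6 had an unadjusted p below 0.05; 0.318% of loci were called. The median log2 change of the members was 0.44, against 0.01 for all loci. In 4 members (Hspa1b, Bag3, Dnajb1 and Hspe1) the refed libraries lay above the fasted ones, as for 10.2% of loci.

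Hspa1b was at 2.27, 2.22 and 2.63 FPKM in fasted WT livers and at 6.22, 2.92 and 4.33 FPKM in refed ones, a log2 difference of 0.66 ± 0.17 (adjusted p = 0.112). Hsph1, at 5.52, 8.88 and 9.59 FPKM fasted and 15.9, 9.44 and 13.3 FPKM refed, differed by 0.63 ± 0.21 (adjusted p = 0.195), and its groups overlapped at the second refed library. Hsp90aa1 was at 24.99, 30.0 and 31.3 FPKM fasted and 44.2, 25.1 and 33.0 FPKM refed, again overlapping. Hspa8 differed by 0.48 ± 0.15 (adjusted p = 0.155), Dnajb1 by 0.50 ± 0.15 (adjusted p = 0.156), Hspa1a by 0.46 ± 0.18 (adjusted p = 0.258) and Bag3 by 0.42 ± 0.14 (adjusted p = 0.186). WT refed 1 had the highest value of 8 members in its group and WT refed 2 the lowest of 8. Without WT refed 2, 1 member, Hspa1b, was called (log2 change 0.88, adjusted p = 0.0346).

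Refeeding in KO livers called 2 members higher, Hspa1b and Bag3, where 5.68% of loci were called and 2% of loci were called higher. Hspa1b was at 1.30, 1.76 and 1.49 FPKM fasted and at 3.09, 3.02 and 3.46 FPKM refed, and rose 2.11-fold, by 0.74 ± 0.17 (adjusted p = 0.0333). Bag3 was at 6.32, 6.43 and 6.65 FPKM fasted and at 12.7, 11.6 and 9.79 FPKM refed, and rose 1.76-fold, by 0.72 ± 0.14 (adjusted p = 0.0198). The groups were separate in both.

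The other cytosolic members did not pass. Hspa1a, at 0.559, 0.867 and 0.512 FPKM fasted and 1.53, 1.11 and 1.47 FPKM refed, differed by 0.53 ± 0.18 (adjusted p = 0.0971), Hsph1 by 0.60 ± 0.21 (adjusted p = 0.0987), Hspa8 by 0.48 ± 0.15 (adjusted p = 0.0742) and Dnajb1 by 0.44 ± 0.15 (adjusted p = 0.102). Hspa8 was called under median-of-ratios scaling, with array weights, with the compared groups alone, and without WT refed 1 or WT refed 2. Hsp90aa1 was at 25.2, 24.5 and 29.9 FPKM fasted and 33.6, 27.3 and 29.9 FPKM refed, which overlap, with a log2 difference of 0.18 ± 0.17 (adjusted p = 0.532). That of Hspb1 was -0.19 ± 0.23 (adjusted p = 0.638). In 7 members the refed libraries lay above the fasted ones, as for 13.1% of loci. The count of 2 fell to 0 without KO fasted 1, KO fasted 2, KO refed 1 or KO refed 2 and to 1 without KO fasted 3 or KO refed 3, and was 5 without WT refed 1, a library that enters the estimate of spread only.

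Hspb1, Hspd1 and Hspe1 were not called in either constitutive genotype. Hspb1 lay between 6.02 and 12.1 FPKM in the fasted and between 6.54 and 12.7 FPKM in the refed constitutive livers. Hspd1 was at 178, 179 and 192 FPKM in fasted WT, 199.6, 181 and 202 FPKM in refed WT, 194, 188 and 185 FPKM in fasted KO, and 198, 162 and 185 FPKM in refed KO livers. Hspe1 was at 162, 159.7 and 165 FPKM in fasted WT and 189, 169 and 194 FPKM in refed WT livers, and at 168, 172 and 166 FPKM in fasted KO and 226, 190.4 and 173 FPKM in refed KO livers. The refed range of Hspe1 lay above the fasted range in both genotypes, while that of Hspd1 did not.

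Deletion of FoxO1 was then compared with its controls in each state. In fasted acute livers limma called 0 of the 10 members, 0 had an unadjusted p below 0.05, and 0.297% of loci were called. Cre values lay above GFP values in Hspa8, Hsp90aa1 and Hspd1 (9.15% of loci), but the log2 difference of Hsp90aa1, the largest of the 10, was 0.30 ± 0.21 (adjusted p = 0.617).

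In refed acute livers limma again called 0 members, with 4 at an unadjusted p below 0.05, and 0.105% of loci were called. Hspa1a, Hspa1b and Dnajb1 had all 3 Cre values below all 3 GFP values, as did 6.51% of loci. The Cre refed mean of Hspa1b was 3.20 ± 0.648 FPKM against 8.90 ± 4.26 FPKM in GFP refed (SD, n = 3 each), a 2.79-fold lower level and a log2 difference of -1.17 ± 0.25 (adjusted p = 0.113). For Hspa1a the means were 1.62 ± 0.389 and 4.50 ± 2.21 FPKM and the difference -1.01 ± 0.23 (adjusted p = 0.139). Dnajb1 was at 10.1, 10.01 and 7.13 FPKM in Cre against 16.8, 12.8 and 13.7 FPKM in GFP livers, a difference of -0.62 ± 0.15 (adjusted p = 0.186).

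The remaining acute refed differences were smaller relative to their error. Hsph1 differed by -0.60 ± 0.20 (adjusted p = 0.353) with overlapping groups. Hspb1 differed by 0.36 ± 0.56 (adjusted p = 0.92) and turned to -0.22 without GFP refed 2. Without GFP refed 1, the library with the highest values, Hspa1b differed by -0.84 (adjusted p = 0.0869) and Hspa1a by -0.70 (adjusted p = 0.0945). In the 8 shallower libraries Hspa1b differed by -1.53 (adjusted p = 0.156). Of the alternatives run, none called these genes.

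The difference between the acute genotypes in their response to the meal was tested directly as an interaction. It called 0 of the 10 members with limma, 5 had an unadjusted p below 0.05, and 0.0287% of loci were called. The count of 5 and this share are at unlike thresholds and are not compared. The 95% intervals given here are for each gene alone and are not adjusted for the number of loci. An interval that leaves out 0 is therefore not a call. The refeeding effect in Cre minus that in GFP was -1.27 ± 0.35 for Hspa1b (95% interval -2.04 to -0.50, adjusted p = 0.646), -1.06 ± 0.32 for Hspa1a (-1.76 to -0.36, adjusted p = 0.646) and -0.71 ± 0.28 for Hsph1 (-1.34 to -0.09, adjusted p = 0.737). Hspa8 (-0.51), Dnajb1 (-0.48) and Hsp90aa1 (-0.47) had the same sign. For Bag3 the 95% interval ran from -0.51 to 0.52. The counts of 8 calls in GFP and 3 in Cre livers are not themselves a test of this difference. This interaction, the refed deletion comparison and both refeeding comparisons share libraries and are not independent of each other.

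**Figure D3:**
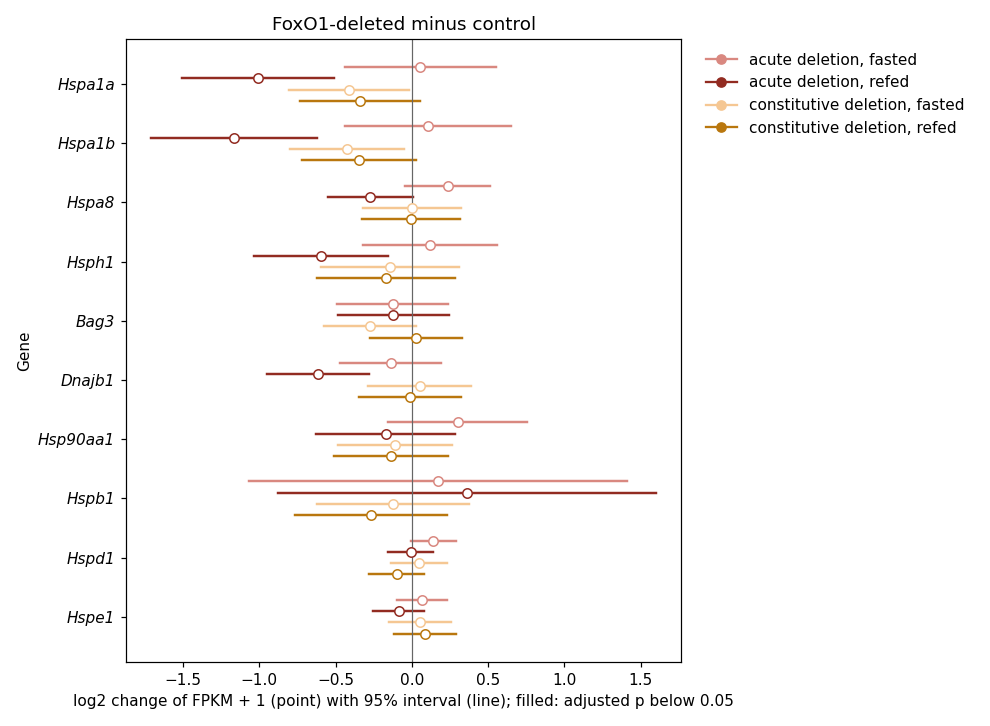
Difference between FoxO1-deleted and control livers for each member (y axis), as the log2 change of FPKM + 1 (x axis) with 95% intervals, in the acute and constitutive models when fasted and refed. The intervals are not adjusted for the number of loci. All points are open, since no member passed an adjusted p of 0.05, and the largest differences from 0 are those of Hspa1b (-1.17) and Hspa1a (-1.01) in refed acute livers.

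In the constitutive model limma called 0 members in fasted livers, with 2 at an unadjusted p below 0.05 (0.0964% of loci called), and 0 in refed livers, with 0 at an unadjusted p below 0.05 (0.0289% of loci called). In fasted livers Hspa1a, Hspa1b and Bag3 were lower in every KO library than in every WT library (4.64% of loci), and Hspe1 was higher (7.52% of loci). Hspa1b differed by -0.43 ± 0.17 (adjusted p = 0.673) and Hspa1a by -0.41 ± 0.18 (adjusted p = 0.724). In refed livers the genotypes overlapped in all 10 members (6.8% of loci were separate upward and 8.5% downward), with Hspa1b at -0.35 ± 0.17 (adjusted p = 0.475) and Hspa1a at -0.34 ± 0.18 (adjusted p = 0.495). The constitutive interaction called 0 members, with 0 at an unadjusted p below 0.05 and 0% of loci called. The intervals, likewise unadjusted, were -0.48 to 0.63 for Hspa1a and -0.45 to 0.61 for Hspa1b.

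The models themselves were compared in a fit of all 24 libraries. Refeeding in GFP minus refeeding in WT was above 0 in 10 of 10 members, with a median of 0.62 against 0.07 for all loci, but limma called 0 of them, with 6 at an unadjusted p below 0.05 (0.00936% of loci called). The differences were 1.28 ± 0.32 for Hspa1b (adjusted p = 0.247), 1.18 ± 0.29 for Hsp90aa1 (adjusted p = 0.244), 1.10 ± 0.31 for Hspa1a (adjusted p = 0.267) and 1.08 ± 0.31 for Hsph1 (adjusted p = 0.29). Refeeding in Cre minus refeeding in KO called 0 members, with 1 at an unadjusted p below 0.05 (0.253% of loci called). That gene was Hsp90aa1, at 0.73 ± 0.29 (adjusted p = 0.166). The effect of deletion did not differ detectably between models in fasted livers (0 called, 0 at an unadjusted p below 0.05, 0% of loci called) or in refed livers (0 called, 3 at an unadjusted p below 0.05, 0% of loci called). Virus, time since deletion and depth also differ between the models and cannot be told apart here.

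Ordered by mean level, Hspa1b ran from GFP refed (8.90 FPKM) through WT refed (4.49), Cre refed (3.20), KO refed (3.19), WT fasted (2.38), Cre fasted (1.63) and KO fasted (1.52) to GFP fasted (1.45 FPKM). Ranges of neighbours overlapped except between KO refed and WT fasted and between WT fasted and Cre fasted. Hsp90aa1 ran from GFP refed (62.2 FPKM) and Cre refed (54.4) through WT refed (34.1), KO refed (30.2), WT fasted (28.8), Cre fasted (28.0) and KO fasted (26.6) to GFP fasted (22.5 FPKM). Neighbours overlapped except KO fasted and GFP fasted. Both orders start with the fed and end with the fasted GFP livers.

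Members also varied together across libraries. The correlation of each member with the mean of the other 9, over 24 libraries centred within each model, was 0.942 for Hsph1, 0.932 for Hsp90aa1, 0.924 for Hspa8, 0.923 for Hspa1b, 0.909 for Hspa1a, 0.886 for Bag3 and 0.856 for Dnajb1. It was lower for Hspe1 (0.783), Hspd1 (0.616) and Hspb1 (0.489). These are descriptions over libraries that share feeding state, scaling and depth. Among 10580 other loci, the 10 most alike to the members' mean profile had r from 0.895 to 0.914: Nck1, Dact1, Ywhag, Ube2f, Dnttip2, Nop2, Chordc1, Rcan1, Zbed4 and Rbm15b.

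All 10 of these loci were called in refeeding in GFP livers, but they were chosen for following a profile in which refed libraries are high, so their refeeding values are a description and not a test. Rcan1, a regulator of calcineurin, had log2 changes of 2.30 ± 0.21 in GFP, 1.20 ± 0.21 in Cre, 1.39 ± 0.19 in WT and 1.57 ± 0.19 in KO livers. Nop2, a nucleolar RNA methyltransferase, had log2 changes of 1.15 ± 0.12 in GFP, 0.87 ± 0.12 in Cre, 0.59 ± 0.13 in WT and 0.74 ± 0.13 in KO livers.

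The rest of the folding machinery was taken from lists of its parts. On refeeding limma called 6.56% of all loci in GFP, 5.44% in Cre, 0.318% in WT and 5.68% in KO livers. These shares stand beside the counts of every list below, and a count near them is no result about a list. Among 16 genes of Hsp90 and its co-chaperones, 5 rose and 0 fell on refeeding in GFP livers and 5 rose and 0 fell in Cre livers, with medians of 0.38 and 0.37, and limma called 0 in WT (median 0.11, 4 at an unadjusted p below 0.05) and 0 in KO livers (median 0.17, 6 at that level). In GFP livers Chordc1, an Hsp90 partner, rose by 0.97 ± 0.16 (adjusted p = 0.00723), and Stip1, the Hop protein that passes clients from Hsp70 to Hsp90, by 0.69 ± 0.12 (adjusted p = 0.00826). The immunophilin Fkbp4 rose by 0.60 ± 0.10 (adjusted p = 0.00911) and Ahsa1, which activates the Hsp90 ATPase, by 0.56 ± 0.10 (adjusted p = 0.00911). In Cre livers Stip1 (0.51), Ppid (0.46), Fkbp4 (0.46) and Unc45a (0.41) led.

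Of 6 other Hsp70 and Hsp110 genes measured above the filter in the acute livers (5 in the constitutive ones), 2 rose in GFP livers, Hspa4l (0.53 ± 0.13, adjusted p = 0.0392) and Hspa4 (0.32 ± 0.09, adjusted p = 0.048), and limma called 0 in Cre, WT or KO livers (3, 0 and 0 at an unadjusted p below 0.05). Of 14 genes listed as cytosolic J-domain partners, 2 rose in GFP livers, Dnaja1 by 0.59 ± 0.09 (adjusted p = 0.00418) and Dnajb14 by 0.37 ± 0.09 (adjusted p = 0.0363). Dnajb12 fell in KO livers by 0.42 ± 0.09 (adjusted p = 0.0272), while limma called 0 in Cre and WT livers (6 and 3 at an unadjusted p below 0.05). Dnajb14 and Dnajb12 encode proteins anchored in the membrane of the endoplasmic reticulum, so they are not free cytosolic proteins. Of 8 nucleotide exchange factors and Hsp70 regulators, Hspa4, which is also in the Hsp110 list, rose in GFP and Bag5 rose in Cre livers (0.47 ± 0.09, adjusted p = 0.0202). Over all loci limma called 6.56% in GFP, 5.44% in Cre, 0.318% in WT and 5.68% in KO livers.

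The TRiC/CCT chaperonin, which folds actin and tubulin, had 3 of 8 subunits called higher in GFP (Cct3, Cct5 and Cct7, 0.31 to 0.45) and 2 of 8 in Cre livers (Cct3 and Tcp1). In WT and KO livers limma called 0, with 0 at an unadjusted p below 0.05. Prefoldin, its delivery complex, had 0 of 6 called by limma in each of the 4 comparisons, with 0 in GFP, 0 in Cre, 1 in WT and 3 in KO livers at an unadjusted p below 0.05. The list of heat shock factors had 4 genes above the filter: Hsf1, Hsf2, Hsf4 and Hsbp1, which encodes a factor-binding protein. Of these 0 were called, with 1, 1, 1 and 0 at that level in the same order. Of the other genes listed as small heat shock proteins, Cryab, Hspb6, Hspb8 and Hspb11 passed the filter. Hspb11 bears the family name but encodes a protein of intraflagellar transport. These 4 genes had 0 called, with 1, 0, 3 and 1 at that level in the same order. The 10 other mitochondrial folding and protease genes had 0 called in GFP, Cre and WT livers (2, 2 and 3 at that level), while in KO livers Clpp and Dnajc19 rose and Clpx and Grpel2 fell.

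Chaperones of the endoplasmic reticulum, which fold secreted proteins, had 0 of 14 called by limma in GFP livers, with 7 at an unadjusted p below 0.05 and all 14 above 0 (median 0.42). Hyou1 was the 1 call of 14 in Cre livers (1.12 ± 0.27, adjusted p = 0.0411), where 5.44% of all loci were called. The median of the list there was 0.54. Dnajb9 was the 1 call in WT (0.81 ± 0.14, adjusted p = 0.0365) and in KO livers (0.56 ± 0.14, adjusted p = 0.04), where the medians were -0.01 and 0.20. Of all loci 0.318% were called in WT and 5.68% in KO livers.

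Of 10 other known HSF1 targets, limma called 1 in GFP, 2 in Cre and 2 in KO livers, where 6.56%, 5.44% and 5.68% of loci were called. Dedd2, which encodes a death effector domain protein, was the 1 call in GFP livers and fell by 0.90 ± 0.10 (adjusted p = 0.00129), and it fell in Cre livers by 0.77 ± 0.10 (adjusted p = 0.00596). The polyubiquitin gene Ubb fell in Cre livers by 0.66 ± 0.11 (adjusted p = 0.0145) and in KO livers by 0.44 ± 0.09 (adjusted p = 0.0226), and Serpinh1, the collagen chaperone Hsp47, was the 1 of 10 called higher in KO livers. Of the 2 cold-inducible RNA-binding genes, Cirbp fell in GFP livers by 0.80 ± 0.15 (adjusted p = 0.0124) and Rbm3 was not called. Pooled, these 12 lists had 0 calls by limma in the 4 deletion comparisons (6 of 100 genes at an unadjusted p below 0.05 in fasted acute, 6 of 100 in refed acute, 4 of 99 in fasted constitutive and 13 of 99 in refed constitutive livers). They also had 0 calls in both interactions, with 4 of 100 and 5 of 99 at that level in the acute and the constitutive model. Of the 17 calls in GFP livers of genes listed here or below, 7 held under every alternative run (Ahsa1, Cct3, Chordc1, Cirbp, Dedd2, Dnaja1 and Stip1). Of the 19 in Cre, 1 in WT and 8 in KO livers, 0 did.

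**Figure D4:**
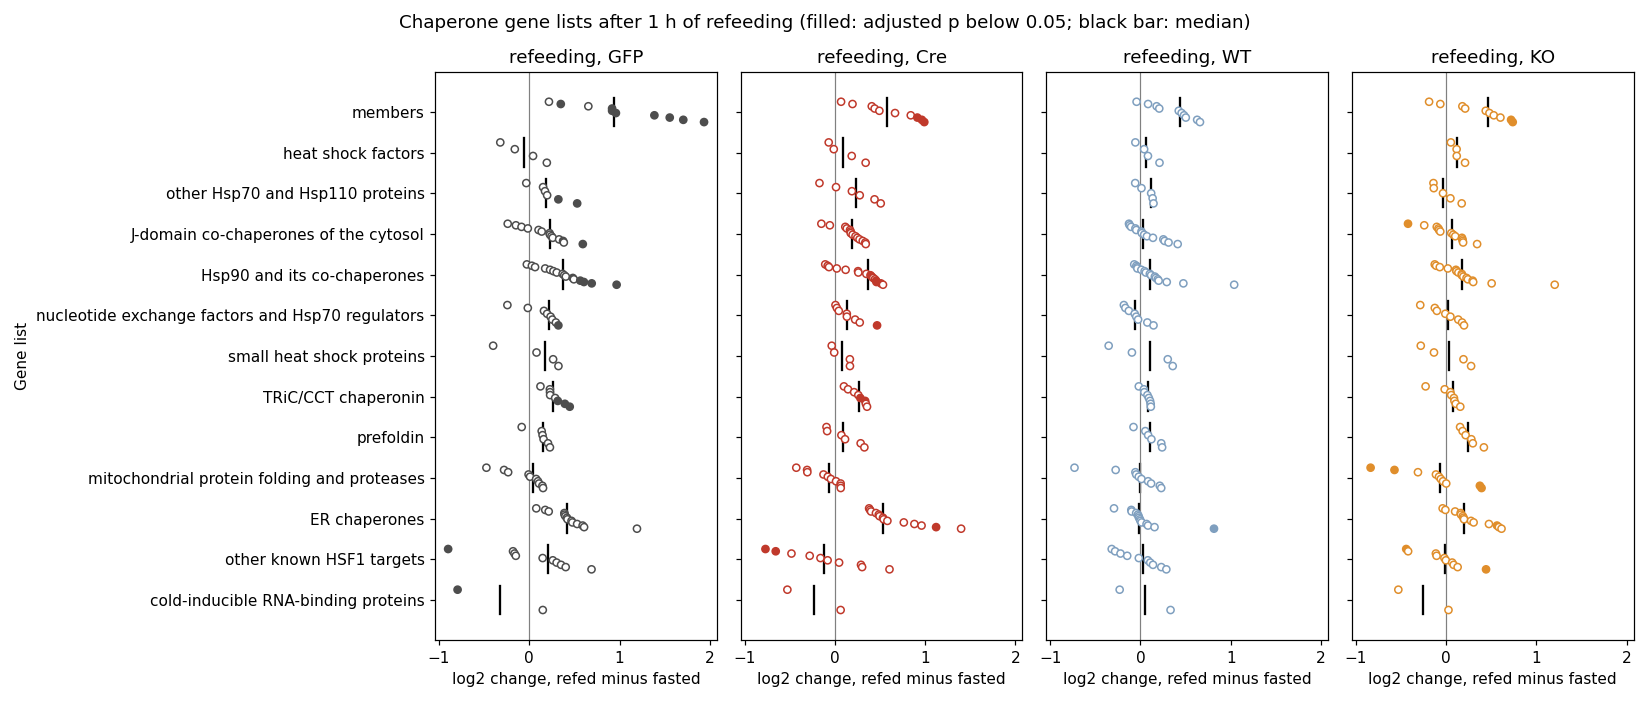
Log2 change on refeeding (x axis, refed minus fasted, FPKM + 1) of each tested gene of the members and of 12 wider lists of the folding machinery (y axis), in GFP, Cre, WT and KO livers. Points are genes, filled where the adjusted p was below 0.05, and the black bar is the median, which for the members is 0.94, 0.58, 0.44 and 0.46.

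Further lists are given beside these results, and their part in the results on the members was not tested. On refeeding 6.56% of all loci were called in GFP, 5.44% in Cre, 0.318% in WT and 5.68% in KO livers. Immediate early genes, which respond to stress and handling, had 3 of 10 called lower in GFP livers (Egr1, Nr4a1 and Junb) and 5 of 10 lower in Cre livers, and 0 of 8 called by limma in WT or KO livers (2 and 1 at an unadjusted p below 0.05). Their summed level was 88.3 to 182 FPKM in GFP fasted, 70.1 to 104 in GFP refed, 140.3 to 199 in Cre fasted and 77.5 to 81.0 in Cre refed livers. In the constitutive livers it was 67.4 to 80.2 FPKM in WT fasted, 88.1 to 99.4 in WT refed, 88.7 to 96.0 in KO fasted and 72.2 to 95.4 in KO refed, so the refed WT and the fasted KO libraries both lay above the fasted WT ones. Macrophage markers had 0 of 8 called by limma (0 in GFP and 1 in Cre livers at an unadjusted p below 0.05), with all 8 above 0 in GFP (median 0.71) and Cre livers (median 0.81), and summed levels of 43.0 to 63.3 FPKM in GFP fasted, 64.2 to 124 in GFP refed, 44.8 to 68.4 in Cre fasted and 36.1 to 219 in Cre refed. Endothelial markers had 0 of 8 called by limma in GFP livers (1 at an unadjusted p below 0.05) and 2 of 8 higher in Cre livers (Oit3 and Pecam1). Their sums were 34.2 to 67.0 FPKM in GFP fasted, 60.1 to 80.3 in GFP refed, 22.3 to 43.1 in Cre fasted and 48.2 to 73.1 in Cre refed. Stellate markers had 0 of 7 called by limma in GFP livers (1 at an unadjusted p below 0.05) and 1 of 7 in Cre livers (Dcn), with sums of 40.2 to 86.0, 77.9 to 87.7, 39.0 to 54.0 and 74.7 to 95.7 FPKM in GFP fasted, GFP refed, Cre fasted and Cre refed livers. Of the 5 erythroid loci tested, 2 of them under the symbol Hba-a1, limma called 0 (0 in GFP and 3 in Cre livers at an unadjusted p below 0.05). The summed levels of the erythroid list were 50.1 to 356, 67.3 to 147.5, 212 to 468 and 52.7 to 175.5 FPKM in the same 4 groups. Neutrophil markers summed to 1.42 to 4.95 FPKM in GFP fasted, 1.88 to 26.0 in GFP refed, 1.22 to 2.46 in Cre fasted and 2.02 to 3.71 in Cre refed livers, with 0 of 2 tested called by limma (1 in GFP and 0 in Cre livers at an unadjusted p below 0.05). No marker of the macrophage, endothelial and stellate lists was listed at 0 in every library.

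In the constitutive livers macrophage sums were 67.1 to 120.3 FPKM in WT fasted, 132.6 to 144.5 in WT refed, 118 to 164 in KO fasted and 128 to 177 in KO refed livers. Stellate sums were 48.5 to 56.0, 63.2 to 90.8, 59.8 to 82.7 and 69.3 to 74.6 FPKM in the same order. In both lists every refed WT library lay above every fasted WT library. Endothelial sums were 36.5 to 42.0 FPKM in WT fasted, 38.8 to 45.6 in WT refed, 49.9 to 60.3 in KO fasted and 47.5 to 52.5 in KO refed livers, so the KO libraries lay above the WT ones in both states. On refeeding limma called 0 macrophage, 0 stellate and 0 endothelial markers in WT (3, 3 and 1 at an unadjusted p below 0.05) and in KO livers (0, 1 and 2 at that level).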

How the data were processed

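Liver RNA of 24 samples was sequenced with a TruSeq Stranded mRNA kit, per the labels' protocols. The authors deposited 1 FPKM value per locus with its lower and upper bound; per the submitters' processing notes the tools included HISAT2, Cufflinks and Cuffdiff with build mm10. Versions and the use of strand are not given in the sources used here. Groups and replicate numbers came from sample titles. Of 23746 loci, 14 marked as failed were left out. Relative depth came from the width of the deposited bounds over 4427 loci with 5 to 200 FPKM in every library; without counts, no counting interval can be given.

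From the FPKM, log2(FPKM + 1) was tested with limma 3.58.1 in R 4.3.3 (eBayes with trend, 1 coefficient per group, two-sided), on loci with FPKM of at least 1 in at least 3 fitted libraries: 10452 for the acute model, 10375 for the constitutive model and 10682 for both together. P-values were Benjamini-Hochberg adjusted over all of these and called at 0.05. The fits were tested on simulated data. Tables and figures were made in Python 3.11.15 with pandas 2.3.3. Deposited starts count from 0; 1 was added. Of 176 listed genes outside the members, 174 were in the files.

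All members were to be named, up to 4 called genes by size from each wider list, and the 10 loci most alike. The members and lists were chosen with earlier results of these data known. Alternatives were median-of-ratios scaling, no filter, a pseudocount of 0.1, array weights, compared groups alone, a replicate block, calls at 0.01, each library left out, the 8 shallower acute libraries, and Hspa1a and Hspa1b summed.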

Additional observations from a re-analysis of the deposited data

How the results depend on the processing

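Of the 13 member calls, 7 held under every alternative run: those of Hspa1a, Hspa1b, Hspa8, Hsph1, Bag3, Dnajb1 and Hsp90aa1 on refeeding in GFP livers. Their log2 changes without any 1 library lay between 0.81 (Dnajb1) and 2.22 (Hspa1b). The count of members called on refeeding was 7 or 8 of 10 in GFP livers under every alternative. In Cre livers it moved from 3 to 0 at an adjusted p of 0.01 and to 0 in the 8 shallower libraries, and lay between 0 and 4 with 1 library left out. Hsp90aa1 also lost its Cre call with no filter and under median-of-ratios scaling, and Hsph1 with the compared groups alone. In WT livers the count was 0, and 0 to 1 with 1 library left out. In KO livers the count moved from 2 to 1 with no filter and to 0 at an adjusted p of 0.01, and lay between 0 and 5 with 1 library left out. Hspa8 gained a call in KO livers under median-of-ratios scaling, with array weights and with the compared groups alone. A threshold of 0.01 gives fewer calls by construction. For the other settings and the left-out libraries the cause was not tested. Counts were 0 under every alternative in the deletion comparisons, the interactions and the differences between models. The 1 followed difference that reversed was Hspb1 in refed acute livers, at -0.22 without GFP refed 2; without 1 library it ranged from -0.22 to 1.00, and the cause was not tested. Of 77 member differences under 0.3 that were not called, 35 changed sign under some alternative.

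Same-numbered libraries correlated in their deviations from the group means by -0.335 to 0.365. In no comparison were all 3 pairs above 0.1. Such correlations cannot show whether the numbers pair the libraries, and the labels do not say. The deeper acute library was replicate 3 in both GFP groups and replicate 1 in both Cre groups. With the replicate number as a block, 8 members were called on refeeding in GFP, 3 in Cre, 0 in WT and 2 in KO livers, and 0 in the other comparisons. Under median-of-ratios scaling the median log2 change of all loci on refeeding in GFP livers was 0.0047 in place of 0.0766, and 7 members were called. Total depth is unknown, so low values such as those of Hspa1a carry an error that cannot be split into counting and other parts.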
